A study of Homo sapiens with 6 samples.

Results

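MALAT1 and NEAT1 are neighbouring genes for long nuclear non-coding RNAs, and their transcripts were followed across 6 arrays of K562 leukaemia cells given an inhibitor of the Mediator kinases or its vehicle. Probe sets were selected by their gene symbol in the platform annotation, which had to be exactly MALAT1 or NEAT1, with dim ones included. This gave 12 of the 54613 probe sets other than controls, all of them for MALAT1. The annotation lists no probe set under NEAT1 alone, so 1 of the 2 genes was found. A further 9 probe sets carry the symbols MIR612 and NEAT1 together and are described apart, without being read as either gene. The pair was proposed for description after the comparison of the groups in these same arrays was known. In that sense MALAT1 was chosen by its measured change, and NEAT1 was chosen with the comparison known. The changes between the groups are therefore given as a description, with the values of the fit across all probe sets, and no support is drawn from them.

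K562 is an established line from a chronic myelogenous leukaemia. Wells were plated in triplicate and held for 3 h either in DMSO, the vehicle, or in 25 nM CA, which the title of the series names as cortistatin A. RNA of each well was labelled with a 3' IVT Express kit, which primes at poly(A), and hybridised to a Human U133 Plus 2.0 array, giving 3 DMSO and 3 CA arrays. Values are log2 signals from RMA, a procedure that removes background, puts the arrays on 1 common distribution and summarises the probes of a probe set. RNA was isolated with an RNeasy Plus column or with TRIzol, and which was used for which well is not given in the sources used here.

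Array medians lay between 3.47 and 3.52, and pairs of arrays correlated at 0.997 across probe sets. CA array 1 had a score of -19.0 on principal component 2, where the rest scored 0.338 to 7.20, and values without this array are given where a result rests on it. Of 10 erythroid and leukaemia markers for K562, 6 had a probe set of their own, and all 6 were bright, from GATA1 at 8.40 to the embryonic globin HBE1 at 13.3. Of 12 markers of other cells 11 had a probe set. The endothelial gene CDH5 (2.46), the monocyte gene CD14 (2.58) and the B cell gene MS4A1 (2.70) were dim, while EPCAM (10.5), KRT8 (9.19), CD3D (9.07) and LYZ (8.88) were bright. Of the 11, 8 lay at or above the filter used for testing. CA minus DMSO differences ran from -0.04 to 0.19 over the 11, and their summed log2 signal was 67.8 in DMSO and 68.3 in CA. Over the 6 K562 markers the differences ran from -0.06 to 0.36, highest at LMO2 (9.66 in DMSO and 10.0 in CA). Some of the labelling controls also moved with the groups. The exogenous polyadenylated RNAs read at their 3' ends averaged 8.38 ± 0.08 in DMSO and 8.17 ± 0.06 in CA (SD, n = 3, exact permutation p = 0.1, 2-sided, the smallest that 3 against 3 arrays allow). The 3' minus 5' signal of actin was 1.45 ± 0.04 in DMSO and 1.21 ± 0.09 in CA (SD, n = 3, exact permutation p = 0.1), with no overlap of the groups. Others overlapped between the groups. The same exogenous RNAs read at their 5' ends averaged 6.77 ± 0.07 in DMSO and 6.73 ± 0.10 in CA (SD, n = 3, exact permutation p = 0.6). The 3' minus 5' signal of GAPDH was 0.64 ± 0.01 in DMSO and 0.60 ± 0.02 in CA (SD, n = 3, exact permutation p = 0.2). The part of these labelling differences in the results below was not tested.

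MALAT1 is among the most abundant long non-coding RNAs of many cells and gathers at nuclear speckles, bodies rich in splicing factors. It has no poly(A) tail: RNase P cuts its 3' end upstream of a small tRNA-like RNA, mascRNA, and a triple helix protects the end that is left. An A-rich stretch encoded near the end can serve as a priming site for oligo(dT). NEAT1 is the scaffold of paraspeckles, nuclear bodies that hold RNA-binding proteins such as SFPQ, NONO and PSPC1, and its short form has a poly(A) tail while the long form ends like MALAT1. The compound binds CDK8 and CDK19, kinases of a module of the Mediator, which links transcription factors to RNA polymerase II.

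In RefSeq (GRCh38.p14) both genes lie on chromosome 11, NEAT1 from 65422798 to 65445540 and MALAT1 from 65497738 to 65506516. The antisense gene TALAM1 (65499312 to 65507432) overlaps MALAT1, and mascRNA (65506117 to 65506174) lies near its end. The microRNA gene MIR612 (65444458 to 65444557) lies within NEAT1. Which strand each probe set reads, and where along the transcript its probes lie, are not given in the sources used here, so a probe set cannot be assigned to an end of MALAT1 or set apart from TALAM1.

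RefSeq promoter windows, each spanning a transcript start and mostly the bases before it, held 2 entries for MALAT1 and none for NEAT1. They are shown because the 2 starts differ in sequence, and which of them a probe set reads is not given in the sources used here. The first starts at 65497738 (chr11:65497488-65497787, plus strand) and the second at 65499045, within the gene (chr11:65498795-65499094, plus strand). Capitals mark every match to a searched motif on either strand.
MALAT1, first start: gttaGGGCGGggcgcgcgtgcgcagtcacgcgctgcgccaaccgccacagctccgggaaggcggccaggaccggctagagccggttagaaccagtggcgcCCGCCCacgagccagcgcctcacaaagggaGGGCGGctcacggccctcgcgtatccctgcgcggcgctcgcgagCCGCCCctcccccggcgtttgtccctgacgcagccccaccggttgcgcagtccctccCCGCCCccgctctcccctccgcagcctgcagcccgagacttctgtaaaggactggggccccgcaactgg
MALAT1, second start: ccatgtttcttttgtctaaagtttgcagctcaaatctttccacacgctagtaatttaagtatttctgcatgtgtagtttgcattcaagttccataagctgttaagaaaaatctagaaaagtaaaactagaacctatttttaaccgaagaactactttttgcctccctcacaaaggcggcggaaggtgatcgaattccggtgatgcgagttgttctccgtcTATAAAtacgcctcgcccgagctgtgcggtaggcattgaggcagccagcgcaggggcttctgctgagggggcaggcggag

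The searched motifs were TATAAA for the TATA box, GGGCGG for the GC box bound by SP factors, CCAAT for the CCAAT box, CACGTG for the E-box, TGACGTCA for the cyclic AMP element, CCGGAAG for ETS factors and TTCNNNGAA for STAT factors. The window of the first start was 73.7% G and C and held 5 GC boxes, a motif found in 45% of all 35116 windows. That of the second start was 46% G and C and held 1 TATA box, whose first base lies 30 bases before the start, a motif found in 11.5% of windows. The median window was 58.7% G and C. None of the other motifs was found in either MALAT1 window. CCAAT occurred in 34.6% of all windows, CACGTG in 7.26%, TGACGTCA in 1.85%, CCGGAAG in 10.3% and TTCNNNGAA in 7.66%. These are matches of letters and no evidence of use.

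MALAT1 signals were lower on the CA arrays at most of its probe sets, by amounts that differed among them. Dim probe sets, those whose average signal was under 3.49, the median over all probe sets, were not tested. This kept 27307 probe sets and 11 of the 12 for MALAT1. The fitted value was lower in CA at 10 of the 11, beside 53.5% of all tested probe sets. On a scale set by the 3' ends of control RNAs, described below, it was lower at 6 of the 11, beside 2.97%. The median change was -0.23 on the log2 scale against -0.01 over all tested. It was -0.11 without DMSO array 1, and -0.15 without CA array 1 and also without CA array 3. Over the 7 probe sets kept by a filter at the 75th percentile of signal it was -0.12. The median was -0.021 on the 3' control scale and -0.19 on the scale of the 5' ends of the same controls. The changes ran from -0.58 (1.5-fold lower) to 0.00. Since CA is compared with DMSO in bulk RNA, fewer cells with the transcript and less of it per cell cannot be told apart.

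**Figure D1:**
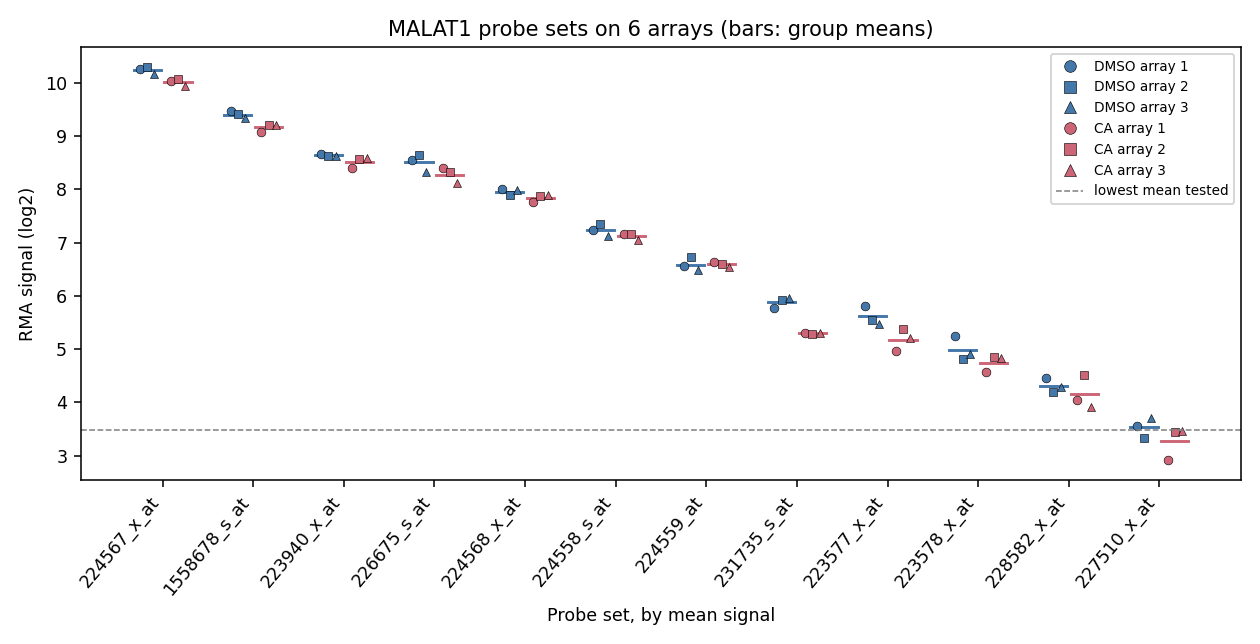
RMA log2 signal (vertical axis) of the 12 MALAT1 probe sets (horizontal axis, brightest first) on the 3 DMSO arrays (blue) and 3 CA arrays (red). Marker shapes give the array number, short bars the group means and the dashed line the lowest mean tested, 3.49. The groups are farthest apart at 231735_s_at, and only 227510_x_at has its mean under the line.

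Signals of the probe sets spanned from 3.41 to 10.1 in mean. Probes bind with different strength, so these levels are not compared as amounts of RNA. The brightest, 224567_x_at, lay above 97.1% of all probe sets. It read 10.3, 10.3 and 10.2 on DMSO arrays 1 to 3 and 10.0, 10.1 and 9.94 on CA arrays 1 to 3. All CA arrays lay below all DMSO arrays, and the change was -0.23 (SE 0.06, limma adjusted p = 0.319 over all tested probe sets).

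The next, 1558678_s_at, read 9.47, 9.41 and 9.34 in DMSO and 9.07, 9.21 and 9.21 in CA, also without overlap, with a change of -0.24 (SE 0.06, limma adjusted p = 0.328). At 223940_x_at the values were 8.67, 8.62 and 8.63 in DMSO and 8.41, 8.57 and 8.58 in CA. Its groups did not overlap either, but CA arrays 2 and 3 lay just below the DMSO arrays, and the change was -0.12 (SE 0.06, limma adjusted p = 0.587). At 224568_x_at the values were 8.0, 7.90 and 7.98 in DMSO and 7.76, 7.88 and 7.89 in CA. The highest CA array there was just below the lowest DMSO array, with a change of -0.12 (SE 0.06, limma adjusted p = 0.600).

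The groups overlapped at the other bright probe sets. For 226675_s_at DMSO gave 8.54, 8.65 and 8.33 and CA 8.40, 8.32 and 8.11, a change of -0.23 whose SE of 0.11 was the largest of the 7 brightest. The change was -0.15 without CA array 3. For 224558_s_at DMSO gave 7.24, 7.34 and 7.12 and CA 7.17, 7.17 and 7.04, a change of -0.11 (SE 0.07), which was -0.05 without DMSO array 2, -0.06 without CA array 3 and -0.16 without DMSO array 3. The single probe set that ends in _at, 224559_at, gave 6.56, 6.72 and 6.48 in DMSO and 6.63, 6.60 and 6.55 in CA. Its change was 0.00 (95% confidence interval -0.16 to 0.17), and its sign was not settled: it was lower in CA with arrays centred on their medians, with array weights, and in 4 of the 6 fits without 1 array, which ran from -0.05 to 0.07.

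The widest gap was at 231735_s_at, a dimmer probe set. It read 5.77, 5.92 and 5.96 in DMSO and 5.31, 5.29 and 5.31 in CA. The CA arrays had an SD of 0.01 and lay below every DMSO array. The change was -0.58 (95% confidence interval -0.72 to -0.44, limma adjusted p = 0.0437), and this was the 1 MALAT1 probe set called, that is, with an adjusted p under 0.05. Over all tested probe sets 0.0952% were called in either direction and 0.0439% were called lower in CA. MALAT1 was proposed for this contrast, so nothing is read from that comparison.

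The call of 231735_s_at ended in each of the 6 fits without an array. Without DMSO arrays 1, 2 and 3 its limma adjusted p was 0.0978, 0.287 and 0.176, and without CA arrays 1, 2 and 3 it was 0.173, 0.244 and 0.217. Its change in those fits stayed between -0.64 and -0.54. It also ended with no filter on dim probe sets (limma adjusted p = 0.133). With a mean-dependent variance, where limma lets its prior variance vary with signal, 3 MALAT1 probe sets were called, 231735_s_at (limma adjusted p = 0.00157), 224567_x_at (0.00969) and 1558678_s_at (0.0191), where 0.385% of tested probe sets were called lower.

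The remaining probe sets had lower signals and larger SEs. At 223577_x_at the values were 5.82, 5.54 and 5.48 in DMSO and 4.96, 5.39 and 5.2 in CA. The groups did not overlap and the change was -0.43, with an SE of 0.13 and a limma adjusted p of 0.388. At 223578_x_at DMSO read 5.24, 4.81 and 4.91 and CA 4.57, 4.84 and 4.83, with a change of -0.24 (SE 0.13) and CA arrays inside the range of DMSO. Its change was -0.11 without DMSO array 1 and -0.15 without CA array 1. At 228582_x_at CA array 2, at 4.52, was the highest of the 6, and the change was -0.15 (SE 0.16). It was -0.33 without CA array 2, -0.03 without CA array 3, -0.08 without DMSO array 1 and -0.10 without CA array 1. The untested 227510_x_at read 3.56, 3.33 and 3.71 in DMSO and 2.92, 3.45 and 3.47 in CA, and in the fit of all probe sets its change was -0.26 (SE 0.17, limma adjusted p = 0.828).

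In all, 6 of the 11 tested probe sets had every CA array below every DMSO array. The share over all tested probe sets was 8.52%, and the 6 share one RNA and possibly probes, so they are not 6 observations.

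The size of the change did not follow the signal closely. Over the 12 probe sets Pearson's r between mean signal and change was 0.25 and Spearman's rho 0.34, given as a description since all were read on the same 6 arrays. The largest falls, at 231735_s_at and 223577_x_at, lay at signals of 5.59 and 5.40. Probe sets of similar or lower signal, 223578_x_at at 4.87 and 228582_x_at at 4.24, changed by less.

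**Figure D2:**
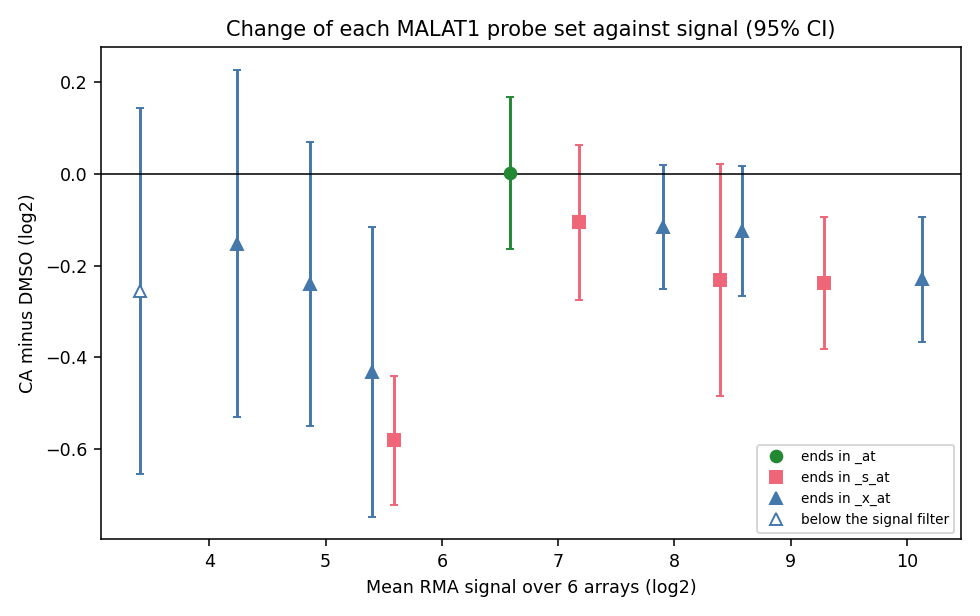
Change in CA minus DMSO on the log2 scale (vertical axis, bars are 95% confidence intervals of the fit) against mean log2 signal over 6 arrays (horizontal axis) for the 12 MALAT1 probe sets. Colour and shape give the ending of the probe set name, and the open triangle is 227510_x_at, below the filter. The intervals of 231735_s_at (-0.72 to -0.44) and 224559_at (-0.16 to 0.17), picked as the extremes of the tested probe sets, do not overlap.

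The ending of a probe set name says how specific its probes are by design. In _s_at sets all probes match several transcripts, in _x_at sets some probes resemble other sequences, and a plain _at marks neither. MALAT1 had 4 _s_at sets with a median change of -0.24 (range -0.58 to -0.11) and 7 _x_at sets, 6 of them tested, with a median of -0.19 (range -0.43 to -0.12). The only _at set changed by 0.00. Medians over all tested probe sets of these kinds were -0.01 for _s_at, 0.00 for _x_at and -0.01 for _at. With 1 probe set of the plain kind, ending and transcript position cannot be told apart.

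The tested MALAT1 probe sets with the lowest and the highest change were set against each other on each array. The signal of 231735_s_at minus that of 224559_at was -0.79, -0.80 and -0.52 on the DMSO arrays and -1.32, -1.31 and -1.24 on the CA arrays. The difference was lower by 0.58 in CA, and the groups did not overlap. This pair was chosen after its values were seen, as the extremes of the 11, and has no test. The gap follows from that choice, and nothing is read from it. Scaling of an array as a whole cancels in such a difference.

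The deviations of arrays from their group means, which do not enter the difference between the means, were used to sort most of the probe sets into 2 sets. The sets were formed by complete linkage, with a correlation of at least 0.5 over the 6 arrays required for every pair, a value set after the data were seen. That rule fixes an r of at least 0.5 within a set and shapes the r between sets. The sets are a description, and the r values below are no support for them. The first held 224567_x_at, 226675_s_at, 224558_s_at and 224559_at, with pairwise r from 0.79 to 0.96. In all 4, DMSO array 2 was the highest DMSO array and CA array 3 the lowest CA array. The second held 1558678_s_at, 223940_x_at, 224568_x_at, 223577_x_at, 223578_x_at and 227510_x_at, with r from 0.53 to 0.94. In all 6, CA array 1 was the lowest CA array. Between the sets r ran from -0.79 to 0.25 with a median of -0.28. In neither set were 231735_s_at and 228582_x_at.

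**Figure D3:**
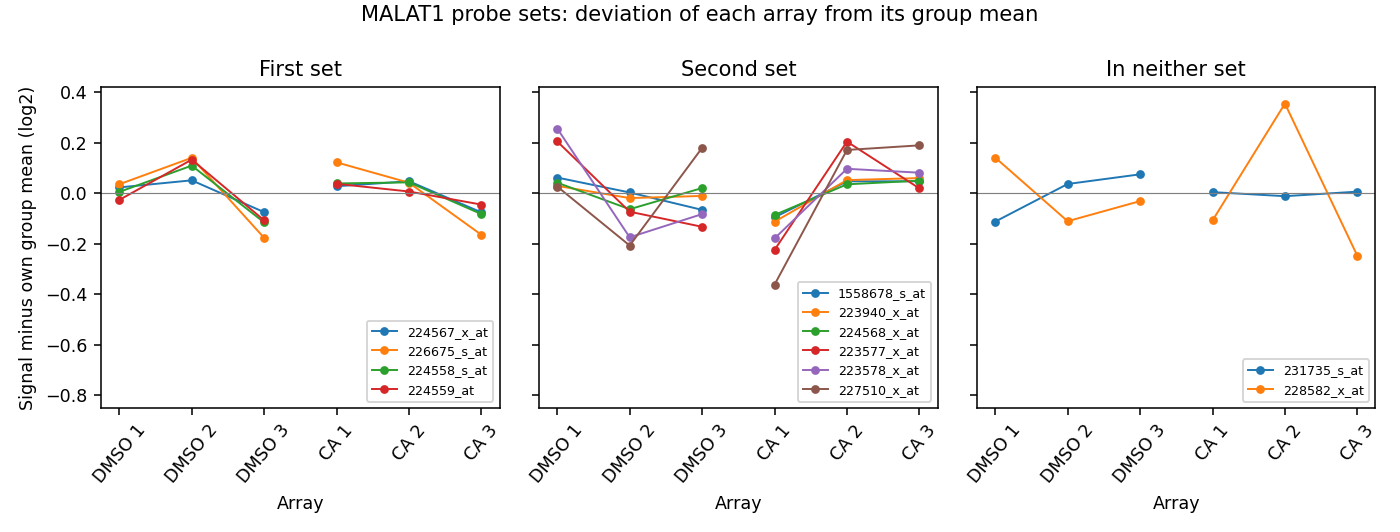
Signal of each MALAT1 probe set on each array minus the mean of its own group (vertical axis, log2) for the 3 DMSO and 3 CA arrays (horizontal axis). In the first set DMSO array 2 is high and CA array 3 low, in the second set CA array 1 is low, and the CA arrays of 231735_s_at are nearly flat.

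The mean of the first set was 8.15, 8.25 and 8.02 on the DMSO arrays and 8.06, 8.04 and 7.91 on the CA arrays, so that the groups overlapped and differed by -0.14. The mean of the second set was 6.79, 6.60 and 6.67 in DMSO and 6.28, 6.56 and 6.53 in CA, without overlap and with a difference of -0.23. Without CA array 1, the array that stood apart, the differences were -0.17 and -0.15. Each of the 6 members of the second set then changed by less, 227510_x_at from -0.26 to -0.07, 223578_x_at from -0.24 to -0.15, 224568_x_at from -0.12 to -0.07, 223940_x_at from -0.12 to -0.07, 223577_x_at from -0.43 to -0.32 and 1558678_s_at from -0.24 to -0.19. CA array 1 was the lowest CA array of all 6, so its removal had to make each fall, and that of their mean, smaller. Nothing is read from that. The median over the 11 tested probe sets was -0.15 without CA array 1. The change of 231735_s_at was -0.58 with and without it.

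Whether probe sets of other genes divide into sets was not tested. Of all genes, 18 had at least 8 tested probe sets, and the median pairwise r of their deviations ran from -0.22 to 0.62. MALAT1, at 0.09 over its 11 tested probe sets, was 12th from the lowest.

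The probe sets listed under MIR612 and NEAT1 together were in part lower on the CA arrays. MIR612 encodes a microRNA precursor, and a 3' array of this kind is not built to read mature microRNAs. Of the 9, only 5 were bright enough to be tested, and their median change was -0.26. Over all 9 it was -0.15, and over the 5 it was -0.046 on the 3' control scale and -0.21 on the 5' control scale. Without DMSO array 2 the median of the 5 was -0.17. None of the 5 was called by limma, and 3 had an unadjusted p under 0.05, beside 9.31% of all tested probe sets. With the mean-dependent variance 1 was called, beside 1.04% of all tested. In 3 of the 5 all CA arrays lay below all DMSO arrays, beside the 8.52% of all tested probe sets given above. The 5 were read on the same arrays and may read the same RNA, so these counts are not of separate observations. The shares over all tested probe sets are given as a description, and nothing is read from the comparison.

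**Figure D4:**
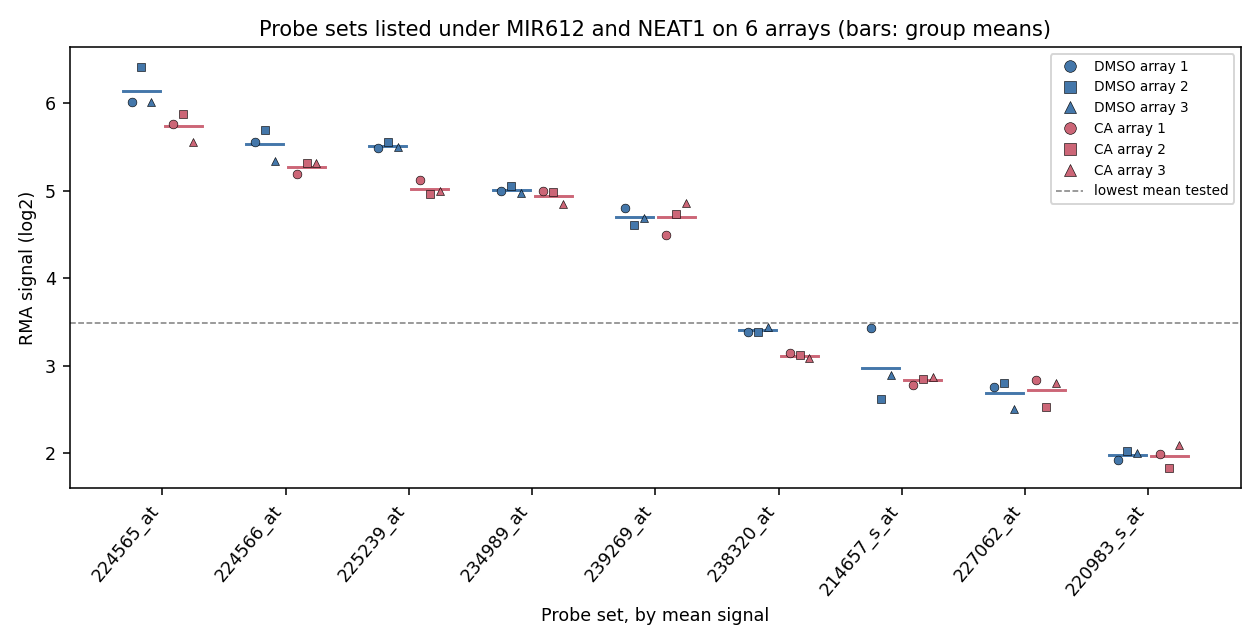
RMA log2 signal (vertical axis) of the 9 probe sets listed under both MIR612 and NEAT1 (horizontal axis, brightest first) on 3 DMSO arrays (blue) and 3 CA arrays (red), with group means as bars. The 4 on the right lie under the dashed line at 3.49 and were not tested, and 225239_at shows the widest gap among the rest.

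The brightest, 224565_at, read 6.01, 6.41 and 6.01 in DMSO and 5.77, 5.88 and 5.56 in CA, a change of -0.41 (SE 0.13, limma adjusted p = 0.408). Its change was -0.28 without DMSO array 2 and -0.32 without CA array 3, and from -0.48 to -0.42 without each of the others. At 224566_at the values were 5.56, 5.70 and 5.34 in DMSO and 5.19, 5.31 and 5.32 in CA. DMSO array 3 and CA array 3 were nearly equal there, and the change was -0.26 (SE 0.10, limma adjusted p = 0.491). That change was -0.17 without DMSO array 2 and -0.35 without DMSO array 3, the extremes of the fits without 1 array.

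The widest gap was at 225239_at, with 5.49, 5.55 and 5.50 in DMSO and 5.12, 4.96 and 5.0 in CA. The change was -0.49 (95% confidence interval -0.62 to -0.36, limma adjusted p = 0.0627), 1.40-fold lower and just short of the threshold. It was called with the mean-dependent variance (limma adjusted p = 0.00843) and with array weights (0.0339), where 0.11% of tested probe sets were called. It was also called on the scale of the 3' control RNAs (0.0445), where 13.2% of tested probe sets were called, nearly all of them higher in CA. Without 1 array at a time its limma adjusted p lay between 0.0916 and 0.318, with changes from -0.54 to -0.46.

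The other tested probe sets showed overlapping groups. At 234989_at the change was -0.07 (95% confidence interval -0.20 to 0.07), and at 239269_at it was 0.00 (95% confidence interval -0.25 to 0.24). Among the dim ones, 238320_at read 3.39, 3.38 and 3.44 in DMSO and 3.14, 3.12 and 3.09 in CA. Its groups did not overlap, and its change in the fit of all probe sets was -0.29 (SE 0.06, limma adjusted p = 0.491). The 3 dimmest, 214657_s_at, 227062_at and 220983_s_at, had mean signals of 2.91, 2.71 and 1.98 and changes of -0.15, 0.04 and -0.01 with overlapping groups. Across the 9, larger falls lay at higher signals (Pearson's r = -0.60, Spearman's rho = -0.67), a description over probe sets that share the 6 arrays.

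The scale of the arrays bears on how far below DMSO these RNAs lie. On the scale of the 3' ends of the polyadenylated controls the median change over all tested probe sets moved from -0.01 to 0.20, and that of MALAT1 from -0.23 to -0.02, with 6 of 11 probe sets lower in CA. This scaling shifts all probe sets of an array alike, so the medians relative to that of all tested probe sets cannot differ between the scales: -0.22 for MALAT1 and -0.25 for the MIR612 and NEAT1 probe sets. On that scale 231735_s_at changed by -0.37 (limma adjusted p = 0.0270) and 224559_at by 0.21. On this scale 13.2% of tested probe sets were called, 3579 of them higher in CA and 15 lower. On the scale of the 5' ends of the same controls the median change was 0.03 over all tested probe sets. It was -0.19 for MALAT1 and -0.21 for the MIR612 and NEAT1 probe sets. How the control RNAs were dosed is not given in the sources used here.

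**Figure D5:**
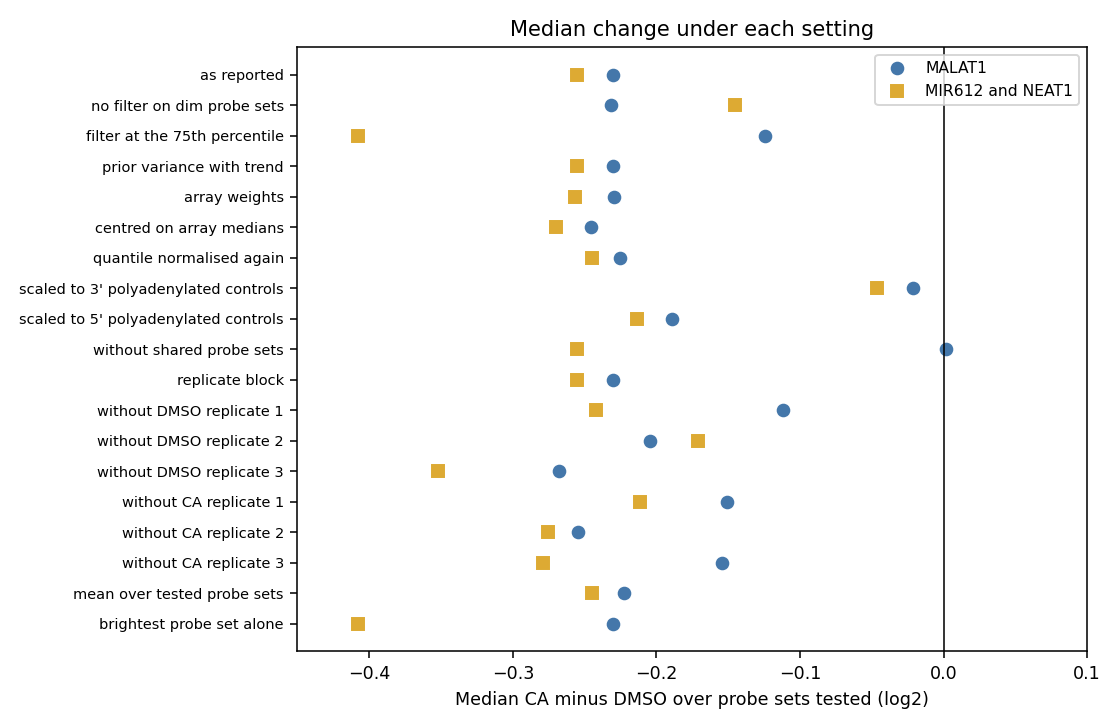
Median log2 change in CA minus DMSO (horizontal axis) over the tested MALAT1 probe sets (blue circles) and the tested MIR612 and NEAT1 probe sets (yellow squares) as reported and under each other setting (vertical axis). The MALAT1 median lies between -0.27 and 0.00, nearest to 0 on the 3' control scale (-0.02) and where only 224559_at is kept (0.00).

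Genes around the pair were not called. Neighbours were the 6 RefSeq genes before NEAT1 and the 6 next after MALAT1 by start position, which include the overlapping TALAM1 and mascRNA. Of these, 5 had a tested probe set with 1 symbol, LTBP3 alone among those after MALAT1. A single probe set stood for each gene, the brightest tested. FRMD8, the nearest of them to NEAT1, changed by -0.09 (8.44 ± 0.05 in DMSO and 8.34 ± 0.02 in CA, SD, n = 3), with CA below DMSO on every array and a limma adjusted p of 0.588. DPF2, which encodes a subunit of BAF chromatin remodelling complexes, changed by -0.04 (95% confidence interval -0.16 to 0.07), and CDC42EP2 by -0.04 (-0.19 to 0.10). TIGD3 changed by -0.11 (-0.30 to 0.08). LTBP3, a binding protein of latent TGF-beta, changed by -0.06 (-0.30 to 0.18). All 5 fitted values were below 0 on the RMA scale, beside 56.5% of all genes read from 1 probe set each. At FRMD8 alone of the 5 every CA array lay below every DMSO array. Over all tested probe sets, not restricted to 1 a gene, that share was 8.52%.

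RNAs for paraspeckle proteins were measured at 31 of 33 listed genes. None was called by limma, with or without the mean-dependent variance, and none had an unadjusted p under 0.05. Over all 12810 genes, read from 1 probe set each, 0.0859% were called, 1.23% with the mean-dependent variance, and 8.61% had an unadjusted p under 0.05. The median of the paraspeckle genes was 0.00, with 17 fitted rises and 14 fitted falls, beside -0.01 over all genes. SFPQ and NONO, which encode core proteins of paraspeckles, changed by 0.00 and 0.05, and PSPC1 by 0.05. HNRNPK, the brightest, changed by 0.02. The extremes were ZNF335 at 0.15 and AKAP8L at -0.09.

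Of 32 nuclear speckle and splicing genes 28 were measured, with a median of -0.02, 21 fitted falls and 7 fitted rises. None was called by limma, with or without the mean-dependent variance, and 3 had an unadjusted p under 0.05. Over all genes 56.5% had a fitted fall and 8.61% such a p, so the 3 of 28 are near the share over all genes. The 3 had lower values in CA: CLK1 (-0.25) and CLK4 (-0.19), kinases that phosphorylate SR splicing proteins, and U2AF2 (-0.15), which binds the polypyrimidine tract of introns. CLK1 went from 6.12 ± 0.07 to 5.87 ± 0.07 (SD, n = 3, limma adjusted p = 0.290). SRSF1, the brightest, changed by -0.02, and CLK2 had the largest rise at 0.07.

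Of 32 genes for RNA 3' end processing and nuclear decay 29 were measured. None was called by limma, with or without the mean-dependent variance, and none had an unadjusted p under 0.05, beside 8.61% of all genes. Their median change was -0.02. ELAC2, the RNase Z that trims the other side of the cut by RNase P, changed by -0.01, and the RNase P subunit genes POP1, POP4 and RPP30 by 0.03, -0.08 and -0.03. EXOSC3, a subunit of the exosome and the brightest member, changed by -0.02. The extremes were XRN2, a nuclear exonuclease, at 0.14 and PABPN1, the nuclear poly(A)-binding protein, at -0.11.

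Other long non-coding RNAs were measured at 20 of 41 listed genes, with a median of -0.04, 14 fitted falls and 6 fitted rises. None was called by limma, with or without the mean-dependent variance, and 2 had an unadjusted p under 0.05, LINC01278 (0.23) and THUMPD3-AS1 (-0.23). Over all genes 8.61% had such a p and 56.5% a fitted fall, with a median of -0.01. The 2 of 20 are near the share over all genes. ZFAS1, the brightest, changed by -0.04. NORAD, a cytoplasmic RNA that binds Pumilio proteins, changed by -0.09, TUG1 by 0.07 and DANCR by 0.00.

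The genes whose levels followed those of MALAT1 most closely over the 6 arrays were taken from 3948 genes with a range of at least 0.3, against the mean of the 11 tested probe sets. They were SORBS2 (Pearson's r = 0.99), TMEM182 (0.98), INTS6 (0.98), ZNF92 (0.98) and ZNF280A (0.98). INTS6, a subunit of the Integrator complex that cleaves nascent RNA, changed from 7.26 in DMSO to 6.95 in CA, a change of -0.31 (SE 0.05, limma adjusted p = 0.173). For the mean of the 5 tested MIR612 and NEAT1 probe sets the closest were TOB1 (0.99), CCNE2 (0.98), ZNF280A (0.97), ZNF518A (0.97) and AKAP7 (0.97). ZNF280A was in both lists, and these values describe 6 arrays that share the difference between the groups.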

How the data were processed

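The deposited file holds, for 6 Human U133 Plus 2.0 arrays, log2 signals of 54675 probe sets, which the authors made by RMA (affy package) per the submitters' processing notes. RMA forces a common distribution on the arrays and so hides a shift of most transcripts, and it compresses changes of dim probe sets. Left out were 62 control probe sets. CA was compared with DMSO per probe set with limma 3.58.1 under R 4.3.3 (lmFit, then eBayes; 2-sided tests) and Benjamini-Hochberg adjustment over 27307 probe sets and a threshold of 0.05. P-values measure the spread between wells of 1 experiment, and the number of arrays limits the precision (median SE 0.07). The design assumed probe sets named NEAT1 alone, and its NEAT1 results were computed over the 9 named MIR612 and NEAT1.

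Genes named were all probe sets of the pair; from each list the called genes or, with none, the brightest member and the extremes; tested neighbours; and the 5 closest profiles. SFPQ, NONO, PSPC1, CLK4, U2AF2, ELAC2, POP1, POP4, RPP30, NORAD, TUG1 and DANCR were added after their values were seen. Members and lists were chosen with earlier results of these data known. The fit was tested on simulated data. Alternatives covered the filter, variance model, array weights, scaling, shared probe sets, a block and leaving out arrays. Promoters and coordinates are RefSeq's (GRCh38.p14).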

Additional observations from a re-analysis of the deposited data

How the results depend on the processing

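The count of probe sets called, 26, was 5 without a filter, 162 where only probe sets over the 75th percentile of signal were tested, 285 with the mean-dependent variance, 3594 on the 3' control scale (99.6% of them higher in CA, against 53.8%), 1 without shared probe sets and 2 to 5 without 1 array at a time. It was split 47.8% higher with centring, 46.2% with repeated quantile normalisation and 55.6% on the 5' control scale. The count for MALAT1, 1, was 3 with the mean-dependent variance. It was 0 with no filter (4 at an unadjusted p under 0.05), at the 75th percentile (5), which leaves out 231735_s_at, without shared probe sets (0), which keeps 224559_at alone, and without each array in turn (4 to 5). For MIR612 and NEAT1 the count of 0 became 1 with the mean-dependent variance, array weights and the 3' control scale.

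The MALAT1 median of -0.23 was -0.12 with the filter at the 75th percentile, which keeps 7 probe sets, -0.021 on the 3' control scale, 0.0014 without shared probe sets and -0.27 to -0.11 without 1 array at a time. The value nearest 0 of these was without DMSO array 1. It was -0.15 without CA array 1 and also without CA array 3. The MIR612 and NEAT1 median of -0.26 was -0.15 with no filter (9 probe sets), -0.41 with the filter at the 75th percentile, which keeps only the brightest, -0.41 for the brightest alone, -0.046 on the 3' control scale and -0.35 to -0.17 without 1 array. The extremes were without DMSO array 3 and without DMSO array 2. Causes beyond the probe sets kept were not tested.

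With the replicate number as a block, 0 probe sets were called by limma (2485 at an unadjusted p under 0.05) and 0 for MALAT1 (5 at an unadjusted p under 0.05), with 231735_s_at at an adjusted p of 0.360. Same-numbered arrays correlated in their deviations at -0.07, 0.01 and 0.06, and not every array correlated best with its own number. The labels state no pairing, and 3 arrays a group cannot decide whether same-numbered wells shared a step.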
